A study of Mus musculus with 6 samples.

Results

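The 9 genes Dusp1, Zfp36, Btg2, Gadd45a, Gadd45b, Gadd45g, Ier5, Nfkbia and Cyr61 were followed in mouse pancreatic islets by RNA-seq. They were chosen by name, as phosphatases, mRNA decay factors, Gadd45 genes and other regulators whose expression is induced by stimulation or stress. The choice was made with earlier results of these data known. All 9 were found among the 44713 genes of the count table, and all 9 passed the filter on low counts that left 12760 genes for testing. Islets were taken from males on a normal diet at the age of 10 weeks, 3 of them db/db and 3 db/m. The methods give the db/db mice as the BKS strain BKS.Cg-Dock7m+/+Leprdb/Nju and the db/m mice as their non-diabetic littermates. The labels instead give the strain C57BL/6 for both groups, with the genotype Lepr-/- for db/db mice and wild type for db/m mice. The db allele disrupts the long signalling form of the leptin receptor in the whole animal, so that obesity and diabetes accompany the genotype and cannot be told apart from it. Each library was 1 mouse, and the p-values below measure the spread between these mice.

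Cells answer growth factors, calcium, cyclic AMP and stress by activating kinases, which switch on a wave of early genes within minutes. Part of that wave encodes brakes. Dual-specificity phosphatases remove phosphate from MAP kinases, Zfp36 and the Btg proteins bring deadenylases to mRNAs, and IκBα, the product of Nfkbia, holds NF-κB in the cytoplasm. In β cells such genes respond to glucose and to hormones that raise cyclic AMP.

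By their marker reads the libraries were not pure islet libraries, and their make-up differed between the groups. The paper, in contrast, reports insulin staining, positive in most isolated cells, as a check that the sequenced islets were free of acinar cells. Acinar markers, the digestive enzyme genes of the exocrine pancreas, took 46.0 to 58.9% of the reads in the db/m libraries and 59.4 to 65.5% in the db/db libraries, with exact 95% intervals of at most 0.0247 percentage points on either side. The 13 β-cell markers summed to 3249 to 7014 CPM (counts scaled to a common library size by TMM) in db/db mice and to 8286 to 26028 CPM in db/m mice. As a share of the reads these markers took 0.196, 0.696 and 0.540% in db/db replicates 1 to 3. In db/m replicates 1 to 3 they took 4.53, 0.881 and 0.861%, so every library held far more acinar than β-cell marker reads. Of these 13 markers, 10 were lower in db/db mice at an unadjusted p under 0.05 and 4 at an adjusted p under 0.05 (edgeR), with Mafa at 0 counts in 1 mouse. The libraries of db/m replicate 1 and db/db replicate 1 stood apart, with TMM factors of 1.75 and 0.605 against 0.919 to 1.06 in the other mice. The 12 heat shock genes, which respond to tissue handling, overlapped between the groups at 289 to 1332 CPM in db/db mice against 1218 to 1787 CPM in db/m mice, and 6 of them were lower at an unadjusted p under 0.05. Summed leukocyte markers (19.7 to 72.0 CPM against 6.93 to 52.3), endothelial markers (14.9 to 29.7 against 18.4 to 52.96), duct markers (168 to 216 against 110 to 177), stromal markers (40.3 to 73.7 against 10.3 to 55.6) and markers of the other endocrine cells (371 to 761 against 260 to 1646) overlapped as well. The part of these differences in the results below was not tested, except where a marker score was used as a covariate. In bulk RNA, fewer cells of a type and less RNA per cell cannot be told apart.

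The sequences just upstream of 5 of the genes are shown because each carries the binding motif of a factor that stimulation activates. Each run holds the 250 bases before the annotated start, 5′ to 3′ on the strand of the gene, from RefSeq on GRCm38.p6. Capitals mark the cyclic AMP response element TGACGTCA (CRE) in Dusp1 and Btg2, the CArG box bound by SRF in Zfp36, the NF-κB site in Nfkbia, and in Cyr61 the TEAD site CATTCC followed by the TATA box TATAAA.
Dusp1, chr17:26508473-26508722, minus strand: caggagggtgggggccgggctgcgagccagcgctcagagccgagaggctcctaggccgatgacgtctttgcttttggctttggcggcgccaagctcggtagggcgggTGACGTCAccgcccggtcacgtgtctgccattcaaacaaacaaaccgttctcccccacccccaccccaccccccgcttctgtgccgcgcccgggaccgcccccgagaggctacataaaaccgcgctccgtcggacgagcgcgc
Btg2, chr1:134079156-134079405, minus strand: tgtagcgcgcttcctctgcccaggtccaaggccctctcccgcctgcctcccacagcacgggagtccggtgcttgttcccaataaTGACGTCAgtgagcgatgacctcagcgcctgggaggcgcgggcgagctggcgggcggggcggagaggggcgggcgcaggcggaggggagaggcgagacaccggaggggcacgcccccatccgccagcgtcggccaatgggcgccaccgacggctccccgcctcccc
Zfp36, chr7:28379229-28379478, minus strand: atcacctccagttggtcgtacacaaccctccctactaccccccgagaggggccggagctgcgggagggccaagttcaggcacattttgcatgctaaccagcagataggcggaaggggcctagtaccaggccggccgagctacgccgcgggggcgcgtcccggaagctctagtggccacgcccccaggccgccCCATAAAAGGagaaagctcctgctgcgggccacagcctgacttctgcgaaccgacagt
Nfkbia, chr12:55492648-55492897, minus strand: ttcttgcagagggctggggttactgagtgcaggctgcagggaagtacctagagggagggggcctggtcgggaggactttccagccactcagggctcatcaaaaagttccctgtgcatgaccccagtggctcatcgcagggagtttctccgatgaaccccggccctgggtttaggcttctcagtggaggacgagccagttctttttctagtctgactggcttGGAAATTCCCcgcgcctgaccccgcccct
Cyr61, chr3:145649986-145650235, minus strand: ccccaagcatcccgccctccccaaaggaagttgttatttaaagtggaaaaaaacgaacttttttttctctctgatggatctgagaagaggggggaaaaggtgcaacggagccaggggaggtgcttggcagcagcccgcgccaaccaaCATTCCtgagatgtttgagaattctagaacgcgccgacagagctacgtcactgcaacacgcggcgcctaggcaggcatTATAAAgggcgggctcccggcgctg

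Both strands of the 250 bases were searched in 32851 RefSeq promoters. With positions counted back from the start, the CRE lay from -143 to -136 in Dusp1 and from -166 to -159 in Btg2, and 1.55% of all promoters held one. The half-site TGACG, which is part of the CRE, also stood in Cyr61 and in 17.8% of all promoters. The CArG box of Zfp36 lay from -58 to -49, and 1.47% of promoters held such a box. The NF-κB site of Nfkbia lay from -29 to -20, against 7.25% of promoters with a site. TATAAA was found in Gadd45b, Gadd45g and Cyr61 and in 12.4% of promoters, and CATTCC was found in Cyr61 and in 12.6%. The AP-1 motif TGANTCA was found in none of the 9 windows and in 6.75% of all promoters. A match is a stretch of letters, and binding was not measured.

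All 9 genes had a negative log2 fold change between db/db and db/m islets, with a median of -1.44 and a range from -2.97 to -0.78. The median over the 12760 tested genes was -0.00093, and 50.1% of them were negative. Dusp1 alone fell at an adjusted p under 0.05 by the quasi-likelihood test of edgeR with Benjamini-Hochberg adjustment over all tested genes. That is 1 of 9, where 0.619% of all tested genes were called in either direction and 0.486% as lower. At an unadjusted p under 0.05, 7 of the 9 were lower and 0 were higher, against 9.89% of all tested genes lower and 5.04% higher. In 6 of the 9, namely Dusp1, Zfp36, Btg2, Gadd45g, Ier5 and Cyr61, every db/db mouse lay below every db/m mouse, which was so for 12.6% of all tested genes. These 6 were also apart when counts were scaled by library size alone, where 25.5% of all tested genes were. Because the 9 genes were chosen with earlier results of these data known, these comparisons are a description and not independent support. Without db/m replicate 1, whose TMM factor was the highest, Dusp1 was still called and 6 genes had an unadjusted p under 0.05, against 10.8% of all genes tested there. Without db/db replicate 1, whose TMM factor was the lowest, Dusp1 was not called (adjusted p = 0.0917, edgeR). There 0 of the 9 genes and 17 of all 13735 tested genes were called. With DESeq2 in place of edgeR 5 of the 9 genes were called, where 4.59% of all genes were called. With the β-cell marker score as a covariate in edgeR 0 of the 9 were called (0.149% of all genes) and 2 had an unadjusted p under 0.05 (10.6% of all genes).

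**Figure D1:**
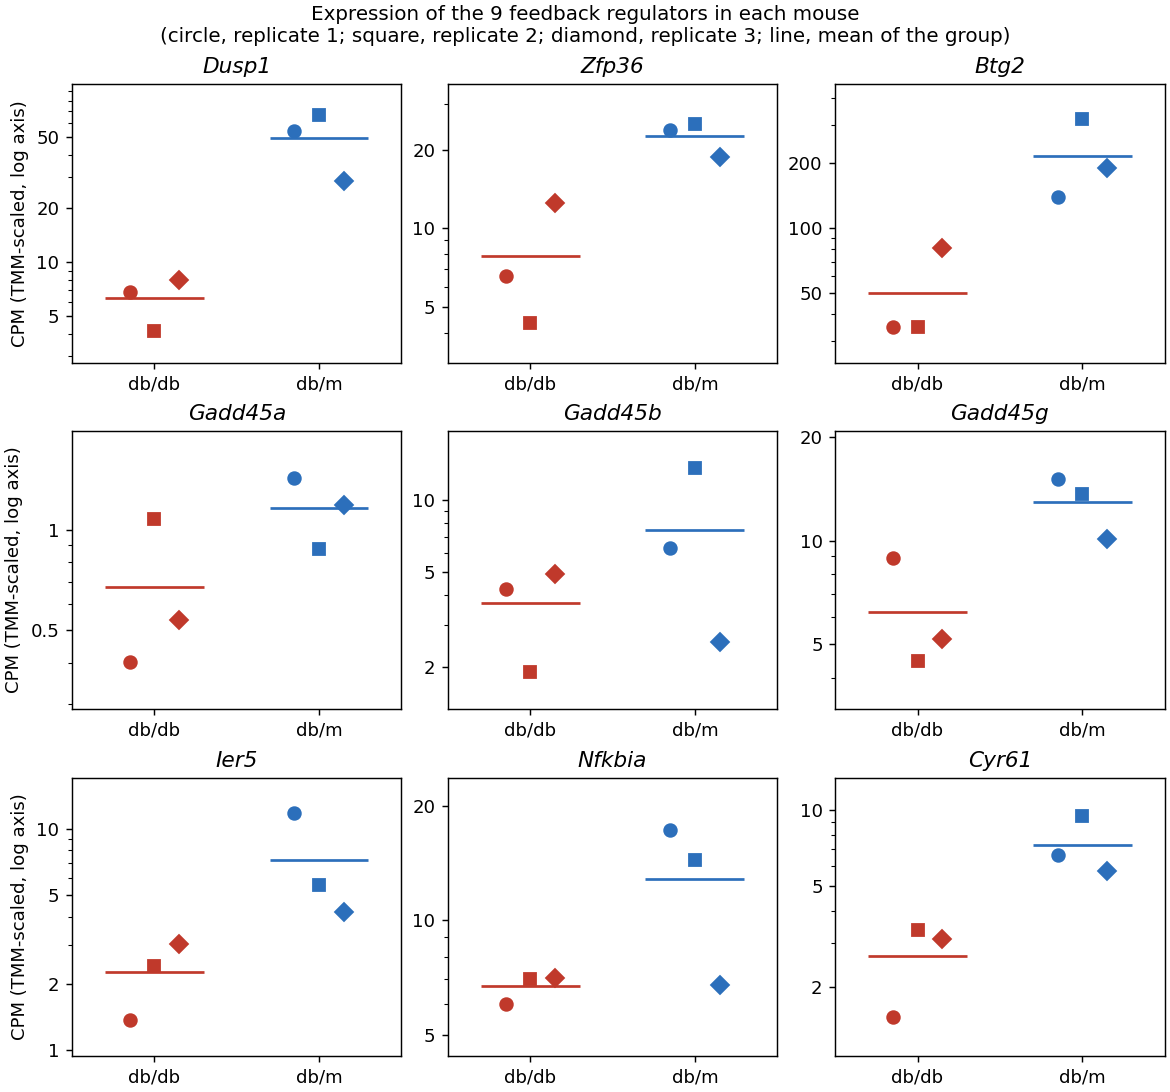
Expression level of each of the 9 genes in every mouse, in TMM-scaled CPM on a log axis; points are mice and bars are group means. The Dusp1 points of the groups are widest apart, 4.13 to 8.002 CPM in db/db mice against 28.5 to 66.2 CPM in db/m mice, while those of Gadd45a, Gadd45b and Nfkbia overlap.

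Dusp1 encodes a nuclear phosphatase that switches off the MAP kinases p38, JNK and ERK. Its 4 exons lie on the minus strand of chromosome 17 (GRCm38, 26505591 to 26508472). Its expression level was 6.82, 4.13 and 8.002 CPM in db/db replicates 1 to 3 and 53.9, 66.2 and 28.5 CPM in db/m replicates 1 to 3. The db/db mice spread 1.94-fold and the db/m mice 2.32-fold, and the lowest db/m mouse was 3.57 times the highest db/db mouse. The means were 6.32 ± 1.99 CPM for db/db and 49.6 ± 19.2 CPM for db/m (SD, n = 3 each). Dusp1 fell by 2.97 on the log2 scale, a 7.85-fold lower level (standard error 0.38, 95% interval from -3.84 to -2.11, adjusted p = 0.0157 by edgeR). It ranked 21 by p among all tested genes. The log2 fold change lay between -3.24 and -2.68 when each mouse was left out in turn, but the call was lost without db/db replicate 1 (adjusted p = 0.0917), replicate 2 (0.0918) or replicate 3 (0.0730), by edgeR. With the β-cell marker score as a covariate it was -2.96 with an adjusted p of 0.203, also by edgeR, and that score differed between the groups itself. With the acinar score as a covariate it was -2.87 (adjusted p = 0.0231, edgeR).

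Zfp36 encodes tristetraprolin, which binds AU-rich elements in the 3′ UTR of short-lived mRNAs and hastens their decay. The gene lies on chromosome 7 from 28376784 to 28379228 on the minus strand. It stood at 6.58, 4.36 and 12.5 CPM in db/db mice against 23.7, 25.1 and 18.7 CPM in db/m mice. The db/m mice were alike and all above the db/db mice, of which replicate 3 was the highest. The means were 7.82 ± 4.21 and 22.5 ± 3.35 CPM (SD, n = 3 each), or -1.53 on the log2 scale (standard error 0.37, 95% interval from -2.36 to -0.70, adjusted p = 0.104 by edgeR). The estimate for Zfp36 was -1.32 with the β-cell marker score as a covariate (standard error 0.75, unadjusted p = 0.113 by edgeR).

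Btg2, an antiproliferative gene whose protein ties the CCR4-NOT deadenylase to mRNAs, lies on chromosome 1 from 134074865 to 134079155 on the minus strand. It was measured at 34.8, 34.8 and 81.1 CPM in db/db mice against 139, 319 and 189 CPM in db/m mice. Again db/db replicate 3 was the highest of its group and still below the lowest db/m mouse. The means were 50.2 ± 26.7 and 216 ± 92.8 CPM (SD, n = 3 each). The log2 fold change of -2.10 was the second in size of the 9 (standard error 0.44, 95% interval from -3.10 to -1.10) and missed the threshold at an adjusted p of 0.0743 by edgeR. It became -2.75 with the β-cell marker score as a covariate (standard error 0.84, unadjusted p = 0.00924 by edgeR).

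The Gadd45 genes encode small stress sensors that bind the kinase Map3k4, which acts upstream of p38 and JNK, and cell cycle proteins. Gadd45g, on chromosome 13 from 51846675 to 51848475 on the plus strand, stood at 8.91, 4.48 and 5.18 CPM in db/db mice against 15.05, 13.6 and 10.1 CPM in db/m mice. The groups did not overlap, but the lowest db/m mouse was only 1.14 times the highest db/db mouse. With means of 6.19 ± 2.38 and 12.9 ± 2.53 CPM (SD, n = 3 each) the log2 fold change was -1.07 (standard error 0.32, 95% interval from -1.78 to -0.35, adjusted p = 0.162 by edgeR). For Gadd45g it was -1.24 with the β-cell marker score as a covariate (standard error 0.67, unadjusted p = 0.0980 by edgeR). In the case of Gadd45b, on chromosome 10 from 80930091 to 80932204 on the plus strand, the level was 4.25, 1.91 and 4.91 CPM in db/db mice against 6.28, 13.6 and 2.54 CPM in db/m mice. Its db/m mice spread 5.33-fold, the widest of the 9 genes, and db/m replicate 3 lay within the range of the db/db mice. Its means were 3.69 ± 1.58 and 7.46 ± 5.61 CPM (SD, n = 3 each). The log2 fold change of Gadd45b was -1.02 (standard error 0.58, 95% interval from -2.32 to 0.29, adjusted p = 0.453 by edgeR), and the estimate was -0.24 when 1 of the db/m mice, replicate 2, was left out.

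Gadd45a, a target of p53, was the least expressed of the 9, with 5 to 18 reads per db/db mouse and 15 to 39 per db/m mouse. The gene lies on chromosome 6 from 67035096 to 67037407 on the minus strand and is overlapped on the other strand by E230016M11Rik. Whether the counting used strand is not given in the sources used here, so that reads of these genes cannot be told apart. Its level was 0.401, 1.08 and 0.538 CPM in db/db mice against 1.43, 0.874 and 1.19 CPM in db/m mice, and db/db replicate 2 lay above db/m replicate 2. The means were 0.672 ± 0.357 and 1.17 ± 0.280 CPM (SD, n = 3 each). On the log2 scale the difference was -0.78 (standard error 0.57, edgeR, adjusted p = 0.550). At this depth the 95% interval ran from -2.05 to 0.50, and with the acinar score as a covariate the estimate was -0.44.

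Ier5 encodes an immediate-early protein that binds the phosphatase PP2A and heat shock factor Hsf1. It lies in a single exon on chromosome 1 from 155096367 to 155099636 on the minus strand. It was measured at 1.36, 2.39 and 3.03 CPM in db/db mice against 11.7, 5.59 and 4.22 CPM in db/m mice. The groups were apart, but db/m replicate 1 was well above the other db/m mice. With means of 2.26 ± 0.838 and 7.19 ± 4.01 CPM (SD, n = 3 each), its fitted log2 difference was -1.66 (standard error 0.46, 95% interval from -2.71 to -0.62, adjusted p = 0.137 by edgeR) and -1.09 without that mouse. With the β-cell marker score as a covariate it turned to 0.34, less than its standard error of 0.62 (adjusted p = 0.893, edgeR). With the acinar score it was -0.88 (adjusted p = 0.314, edgeR).

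Nfkbia, on chromosome 12 from 55489409 to 55492647 on the minus strand, is itself a target of NF-κB and so closes a negative feedback loop. Its level was 6.02, 6.996 and 7.06 CPM in db/db mice against 17.3, 14.4 and 6.77 CPM in db/m mice. The db/db mice were the most alike of all 9 genes, with 1.17-fold between the highest and the lowest, and db/m replicate 3 lay among them. With means of 6.69 ± 0.583 and 12.8 ± 5.43 CPM (SD, n = 3 each), Nfkbia differed by -0.94 on the log2 scale (standard error 0.34, 95% interval from -1.71 to -0.16, adjusted p = 0.248 by edgeR). It was -0.64 without db/m replicate 1, and it passed the threshold when db/m replicate 3 was left out (-1.23, adjusted p = 0.0487, edgeR). With the β-cell marker score as a covariate it was -0.02, and with the acinar score it was -0.46 and no longer under an unadjusted p of 0.05 (unadjusted p = 0.190, edgeR).

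Cyr61, listed as Ccn1 in RefSeq, encodes a secreted matrix protein that binds integrins and is a standard target of the YAP and TEAD factors. It lies on chromosome 3 from 145646971 to 145649985 on the minus strand. Its level was 1.53, 3.35 and 3.09 CPM in db/db mice against 6.64, 9.43 and 5.74 CPM in db/m mice, and the lowest db/m mouse was 1.71 times the highest db/db mouse. The means of 2.66 ± 0.987 and 7.27 ± 1.93 CPM (SD, n = 3 each) amounted to -1.44 on the log2 scale (standard error 0.37, 95% interval from -2.28 to -0.60, adjusted p = 0.117 by edgeR). Taking the β-cell marker score as a covariate gave -1.20 (standard error 0.74, unadjusted p = 0.138 by edgeR).

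**Figure D2:**
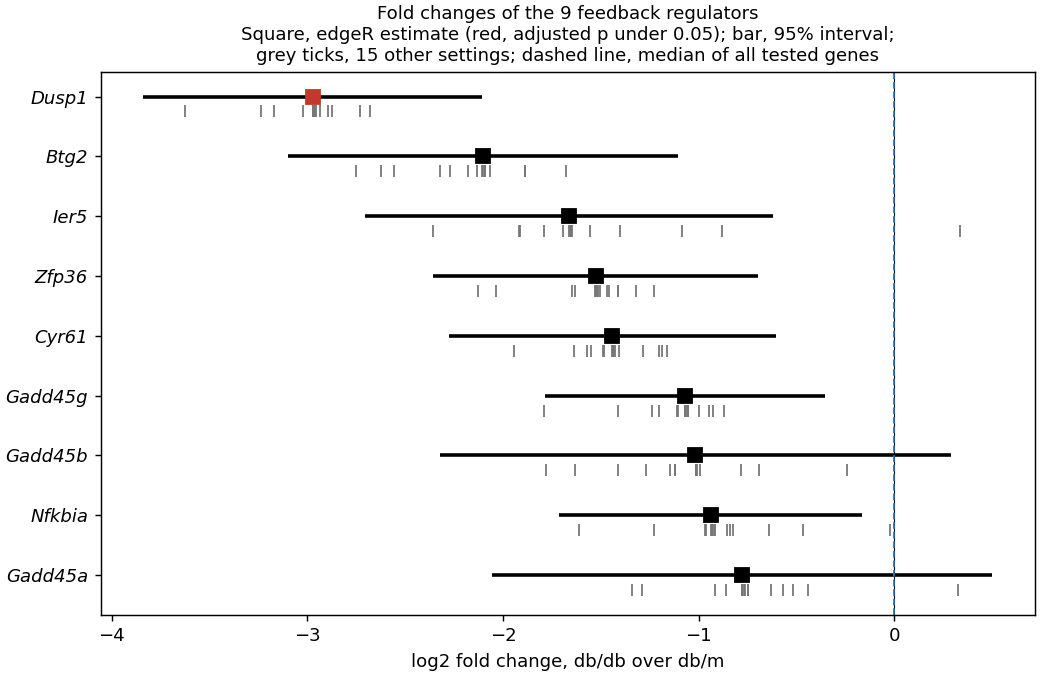
Log2 fold change of each gene (db/db over db/m) with its 95% interval from edgeR as a square and bar; grey ticks are the estimates under the 15 other settings. The intervals of Gadd45a and Gadd45b reach past 0. The ticks of Gadd45a and Ier5 cross 0 with the β-cell marker score as a covariate (0.32 and 0.34, standard errors 1.11 and 0.62).

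Compared per length of exon, the order of the 9 genes differed between the groups. In db/m islets Btg2 had the highest level, at 69.9 ± 30.1 RPKM (the same scale per kilobase of exon, SD, n = 3), followed by Dusp1 at 25.5 ± 9.90 RPKM, whose range overlapped neither with that of Btg2 nor with that of Zfp36. Zfp36 at 12.8 ± 1.90 RPKM and Gadd45g at 11.96 ± 2.34 RPKM did not differ beyond their spread. Nfkbia (8.12 ± 3.44 RPKM) overlapped with Gadd45g and with Gadd45b (5.90 ± 4.43 RPKM), and Cyr61, Ier5 and Gadd45a followed at 3.59 ± 0.9499, 2.20 ± 1.23 and 0.952 ± 0.229 RPKM, of which Ier5 and Gadd45a did not overlap. In db/db islets Btg2 was again the highest, at 16.3 ± 8.67 RPKM. Its range did not overlap with that of the next gene, Gadd45g (5.73 ± 2.20 RPKM). Zfp36 (4.43 ± 2.39 RPKM), Nfkbia (4.24 ± 0.369), Dusp1 (3.25 ± 1.02) and Gadd45b (2.92 ± 1.24) followed. From Gadd45g down, each gene's range over the mice overlapped with that of the next, but genes further apart in the order, such as Gadd45g (4.15 to 8.24 RPKM) and Dusp1 (2.12 to 4.12 RPKM), did not overlap. The levels of Cyr61, Ier5 and Gadd45a were 1.31 ± 0.487, 0.691 ± 0.256 and 0.549 ± 0.291 RPKM. Dusp1 was next to Btg2 in the db/m order and came after Gadd45g, Zfp36 and Nfkbia in the db/db order.

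Some mice ranked alike across most of the 9 genes. Within the db/db group, replicate 3 had the highest level of 6 of the 9 genes and the lowest of 0. Within the db/m group, replicate 3 had the lowest level of 7 genes and the highest of 0. The share of all tested genes with these rankings was not counted, so whether they are particular to the 9 genes was not tested. Summed over the 9 genes the level was 70.6, 63.5 and 125 CPM in db/db mice against 275, 468 and 267 CPM in db/m mice. Btg2 made up between 49.2 and 70.8% of that sum, so that the sum follows this gene. The mean log2(CPM + 1) over the 9 genes was 2.51, 2.43 and 2.91 in db/db mice against 4.05, 4.20 and 3.48 in db/m mice. Each gene has the same weight in this mean, but the added 1 CPM shrinks the differences of low genes such as Gadd45a. The tested genes with the most similar profile over the 6 mice, by root mean square difference of centred log2(CPM + 1), were Rufy3 (0.118), Usp29 (0.140), Tctn3 (0.142), Dzank1 (0.144) and Bbs7 (0.154), where the profile of the 9 genes had a size of 0.698. Usp29 had only 3, 4 and 4 counts in db/db mice and a log2 fold change of -2.97 (edgeR), which the added 1 CPM makes smaller on this scale.

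A share of reads within a gene family does not depend on the scaling between libraries, so each gene was also set against its relatives. Dusp1 took 9.53% (exact 95% interval 7.68 to 11.6), 7.79% (6.11 to 9.75) and 11.7% (9.77 to 13.8) of the reads of the 10 MAP kinase phosphatase genes in db/db mice. In db/m mice it took 48.5% (46.7 to 50.3), 47.5% (45.5 to 49.5) and 34.8% (32.4 to 37.3). The groups were far apart, at 9.67 ± 1.95% and 43.6 ± 7.63% (SD, n = 3 each), and the two-sided exact permutation test gave p = 0.1, the smallest that 3 against 3 mice allow (0.225 adjusted over the 9 shares). These intervals cover the sampling of reads alone. No molecular identifiers are described for these reads, so copies of the same molecule may have been counted as separate reads.

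The relatives of Dusp1 did not share its difference evenly. On the log2 scale Dusp10 differed by -1.74 (standard error 0.48, edgeR, adjusted p = 0.136) and Dusp5, specific for nuclear ERK, by -1.74 (standard error 0.60, edgeR, adjusted p = 0.223). Dusp4 was at -1.11. Dusp6, the cytoplasmic ERK phosphatase, was at 0.47, Dusp7 at 0.18, Dusp8 at 0.05 and Dusp16 at 0.53, none past the threshold. Dusp2 and Dusp9 were too low to be tested.

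Zfp36 took 15.6 ± 4.03% of its family's reads in db/db mice against 32.5 ± 8.18% in db/m mice (SD, n = 3 each), with no overlap (two-sided exact permutation test, p = 0.1, adjusted p = 0.225). Its relative Zfp36l1 had a log2 fold change of -0.54, and Zfp36l2 was at 0.37. Btg2 took 20.8 ± 9.15% of the reads of the Btg and Tob genes in db/db mice against 54.0 ± 5.33% in db/m mice (SD, n = 3 each), again apart (p = 0.1, adjusted p = 0.225, same exact permutation test). Tob1 took 63.7% on average in db/db mice against 25.6% in db/m mice, while its own log2 fold change was 0.71 (adjusted p = 0.472, edgeR). Btg1, Btg3 and Tob2 were at -1.07, -1.07 and -1.02, and Btg4 had 0 counts in every mouse.

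Cyr61 took 50.8 ± 11.7% of the reads of the CCN genes in db/db mice against 76.8 ± 1.55% in db/m mice (SD, n = 3 each), without overlap (two-sided exact permutation test, p = 0.1, adjusted p = 0.225). That family rested on 48 to 92 reads in db/db mice against 141 to 235 in db/m mice. Ctgf, its closest relative and also a YAP target, had a log2 fold change of 0.65 (adjusted p = 0.517, edgeR). Nov, Wisp1, Wisp2 and Wisp3 were too low to be tested.

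The shares of the 3 Gadd45 genes, of Nfkbia and of Ier5 overlapped between the groups. Gadd45a, Gadd45b and Gadd45g took 7.47, 34.4 and 58.1% of their family's reads on average in db/db mice against 6.00, 31.4 and 62.6% in db/m mice. Nfkbia took 26.4 ± 2.29% of the IκB family's reads in db/db mice against 20.1 ± 7.62% in db/m mice (SD, n = 3 each, exact permutation p = 0.3), a difference that turned to -0.54 percentage points when reads were counted per kilobase. Ier5 made up 97.0 and 95.8% of its pair with Ier5l, which was too low to be tested. Among the other IκB genes the shares of Nfkbiz (38.1% on average in db/db mice against 65.5% in db/m mice) and Nfkbib (28.2% against 9.53%) did not overlap (two-sided exact permutation test, p = 0.1 each). The log2 fold changes were -2.08 for Nfkbiz, which is described with the NF-κB list, 0.25 for Nfkbib and -0.61 for Nfkbie, and Nfkbid was not tested.

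**Figure D3:**
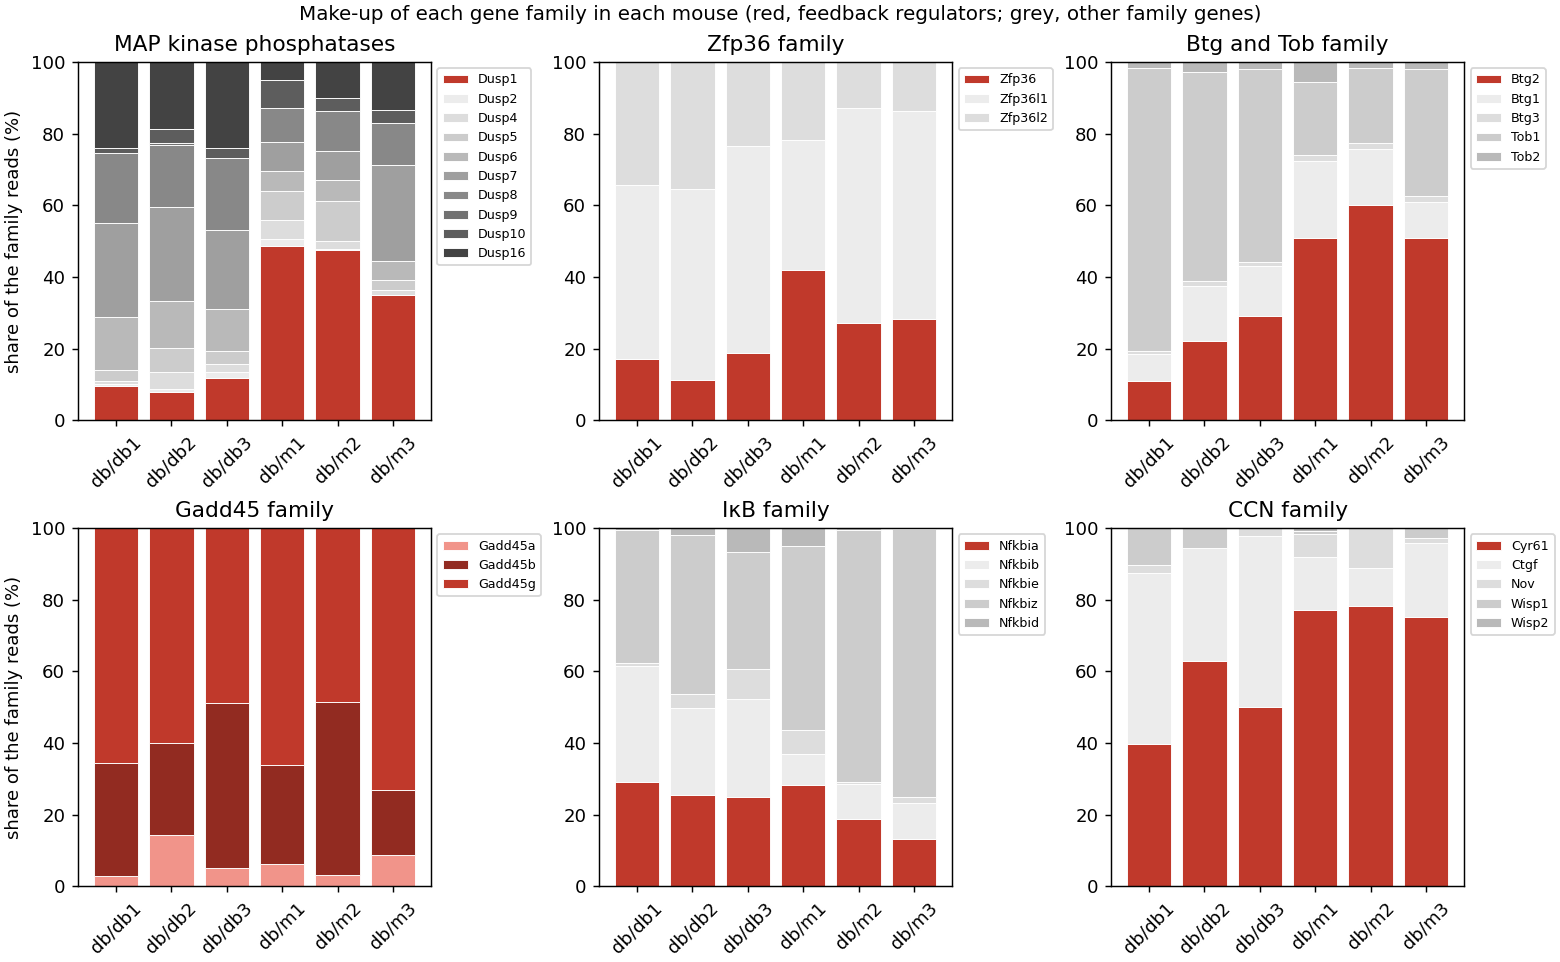
Percent of the reads of each gene family that fell on each gene, as stacked bars per mouse. Dusp1 fills 34.8 to 48.5% of the phosphatase bar in db/m mice and 7.79 to 11.7% in db/db mice, while the shares of the Gadd45 genes overlap.

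Outside the 9 genes, the pathways they act in were examined through 8 lists with 110 tested genes, each counted once. Of these 110 genes 1 was lower and 0 were higher at an adjusted p under 0.05 (edgeR), and 16 were lower and 0 higher at an unadjusted p under 0.05, where 9.89% of all tested genes were lower. Their median log2 fold change was -0.06, near that of all tested genes. The lists, like the 9 genes, were chosen with earlier results of these data known. The gene past the threshold was Nfkbiz, an atypical nuclear IκB protein that is itself induced by NF-κB signals. It stood at 7.71, 12.3 and 9.28 CPM in db/db mice against 31.4, 53.6 and 38.7 CPM in db/m mice, without overlap. Nfkbiz fell by 2.08 on the log2 scale (standard error 0.29, adjusted p = 0.0246 by edgeR). Among the settings without a replicate block, the call was lost with library size alone, with the β-cell marker score, and without db/db replicate 1, db/db replicate 2, db/db replicate 3 or db/m replicate 2.

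In the list of MAPK feedback genes, 3 of 14 tested genes were lower at an unadjusted p under 0.05 and 0 were higher, with a median log2 fold change of -0.05. The 3 were Dusp5, Dusp10 and Errfi1, an inhibitor of the EGF receptor at -0.97, while Spred1, an inhibitor of Ras signalling, was at 0.85. Among MAP kinases and stimulus factors the count was 4 of 19 lower and 0 higher, with a median of -0.12. Srf, the factor that binds the CArG box, averaged 12.2 CPM in db/db mice against 32.3 in db/m mice, or -1.41 on the log2 scale (standard error 0.36, edgeR, adjusted p = 0.113). Its partner Elk1 was at -1.31, the neuronal JNK gene Mapk10 at -1.63, and the cyclic AMP factor Crem at -0.91.

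Of the mRNA decay machinery 5 of 21 tested genes were lower at an unadjusted p under 0.05 and 0 were higher, with a median of -0.20. Beside Btg1, Btg3 and Tob2, the Roquin gene Rc3h2 was at -0.93 (standard error 0.23, adjusted p = 0.108 by edgeR). Of 12 mRNAs known to carry AU-rich elements, 8 were too low to be tested, among them Tnf, Il6 and Il1b. The other 4 had log2 fold changes of -0.94 (Vegfa), -0.23 (Ier3), 0.25 (Myc) and 0.70 (Ptgs2). Of these 4 only Vegfa had an unadjusted p under 0.05, and their median was 0.0096.

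Of 20 growth arrest genes and p53 targets 1 was lower at an unadjusted p under 0.05, Plk3, a stress-induced kinase, at -2.16 on the log2 scale (standard error 0.49, edgeR, adjusted p = 0.0911). Plk2, Perp and the Gadd45 partner Map3k4 were at -0.60, 0.55 and -0.33, and the median of the list was -0.03. In the NF-κB list Nfkbiz was the only one of 15 tested genes at an unadjusted p under 0.05 (median -0.04), with Rel at -1.54, Relb at 1.0, Cyld at -0.34 and Birc3 at 0.73. Among the CCN genes and YAP targets 1 of 14 was lower, Amotl2, at -1.12 (standard error 0.29, adjusted p = 0.113 by edgeR), whereas Yap1 and Tead2 were at 0.53 and 0.71 and the median was 0.08. The 3 tested partners of Ier5, Ppp2r2a, Ppp2r2d and Hsf1, were at -0.15, 0.30 and 0.20.

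**Figure D4:**
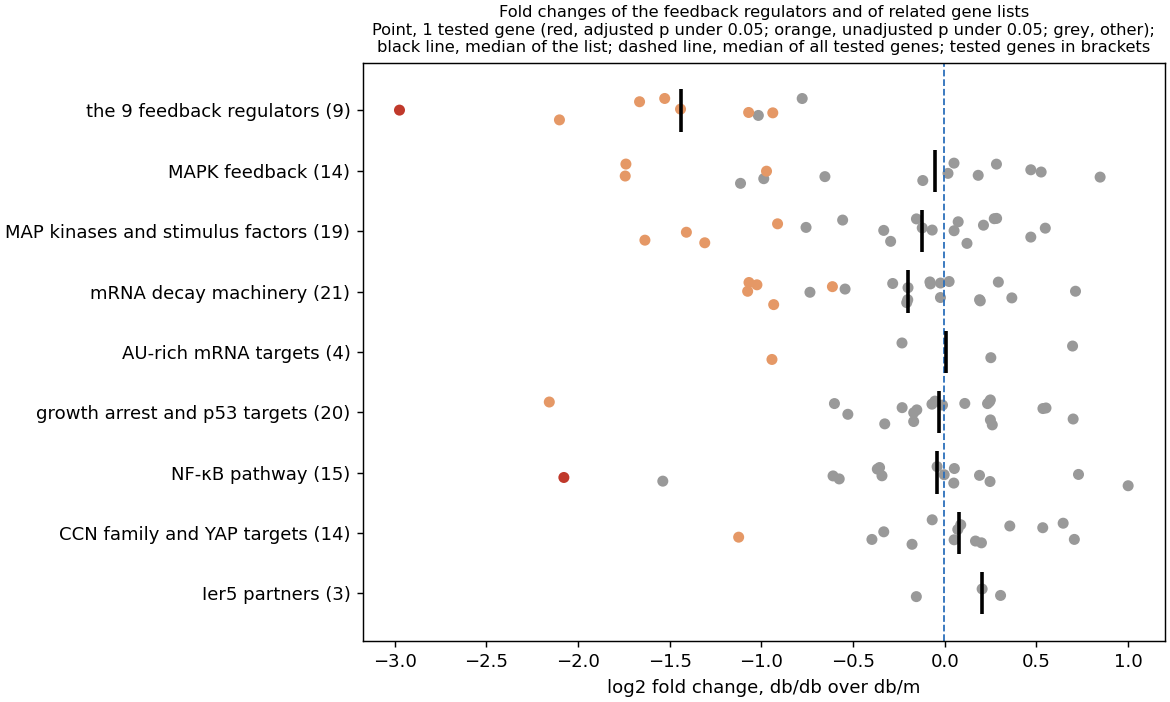
Log2 fold change (db/db over db/m) of every tested gene of the 9 feedback regulators and of 8 related lists; points are genes and the bar is the median of each list. The 9 genes have a median of -1.44, while the medians of the 8 lists lie between -0.20 and 0.20.

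The 9 genes shared a compact structure, which the choice by name did not use. Their spans ran from 1801 to 4291 bases, where the median of 12244 tested genes with a position was 22361.5 bases, and all 9 lay below it. No transcript of theirs had more than 6 exons, against a median of 9. The pentamer ATTTA, the core of AU-rich elements, stood in the 3′ UTR of 7 of the 9 genes and of 70.7% of 11342 tested genes with an annotated 3′ UTR. Per kilobase it was densest in Cyr61 (7.25), Dusp1 (5.80), Nfkbia (3.91), Zfp36 (3.88) and Gadd45a (3.55), against a median of 1.32. Btg2 was the other gene above that median, which made 6 of the 9, and Gadd45b and Gadd45g had none. The longer element TTATTTATT was found 2 times in Dusp1 and 1 time each in Zfp36 and Nfkbia, where 8.34% of all tested 3′ UTRs held at least 1.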

How the data were processed

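RNA was taken straight from islets that collagenase had freed from the pancreas and a gradient had enriched, and ribosomal RNA was removed before the libraries were made. The reads were mapped to mm10. The methods name TopHat, and the submitters' processing notes name HISAT2 2.0.4. The authors deposited 1 column of raw counts for each mouse, by gene symbol and without normalization. The counting program, its annotation and its use of strand are not given in the sources used here. Library totals lay between 15641797 and 20614531 counts, so that 3 counts, taken as the floor, corresponded to 0.110 to 0.241 CPM.

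The counts were analysed with edgeR 4.0.16 in R 4.3.3 (filterByExpr, TMM factors, quasi-likelihood F-test, db/db against db/m, no covariate). The p-values of 12760 genes were adjusted by Benjamini-Hochberg and called under 0.05. The common biological coefficient of variation was 0.355. The standard error was taken as the absolute log2 fold change over the root of the F statistic. No pair of replicates in a group was alike within sampling noise, with 26.5 to 147 as chi-square per degree of freedom. Family shares had exact 95% Clopper-Pearson intervals and two-sided exact permutation tests. The 9 genes and all lists were chosen with earlier results of these data known. Genes named were all 9, their relatives, those of each list at an adjusted p under 0.05 with up to 4 more by smallest p, and the 5 nearest profiles. Gene positions and promoters came from RefSeq on GRCm38.p6 and 3′ UTRs from GENCODE on the same build. Alternatives were upper-quartile factors, library size alone, DESeq2 1.42.0, a filter of 10 counts in 3 mice, no filter, removal of genes that took 1% of any library, a block for the replicate number, an acinar or a β-cell marker score (mean log2(CPM + 1)) as a covariate, and leaving out each mouse. Circular RNAs were not analysed here.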

Additional observations from a re-analysis of the deposited data

How the results depend on the processing

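Across 15 other settings the estimates of Dusp1, Zfp36, Btg2, Gadd45b, Gadd45g, Nfkbia and Cyr61 kept a negative sign. Those of Gadd45a and Ier5 turned with the β-cell marker score as a covariate (0.32 and 0.34, standard errors 1.11 and 0.62). There Nfkbia was at -0.02 (standard error 0.63), and 6 of the 9 estimates lay below the median of all genes (-0.05). With that score Dusp1 was at -2.96 with an adjusted p of 0.203 (edgeR), 0 of the 9 genes, 0 of the pathway genes and 19 of all genes were called, and 2 of the 9 had an unadjusted p under 0.05, and the cause was not tested. DESeq2 called 5 of the 9 genes, 8 pathway genes and 680 of 14821 genes with an adjusted p. It added Zfp36 (-1.51), Btg2 (-2.09), Ier5 (-1.65) and Cyr61 (-1.43). Without a filter on low counts, 6 of the 9, 8 pathway genes and 888 of the 23506 genes tested there were called. The genes added were Zfp36 (-1.53), Btg2 (-2.11), Gadd45g (-1.07), Ier5 (-1.65) and Cyr61 (-1.44). Library size alone left 0 pathway genes and 21 of all genes called against 79, and it moved the median of all genes to -0.59 and that of the 9 genes to -1.94, with all 9 below that median. Upper-quartile factors left 52 of all genes called. With the replicate number as a block Dusp1 was at -2.93 (adjusted p = 0.0940, edgeR), and 0 of the 9 genes, 0 pathway genes (Nfkbiz was lost) and 16 of all genes were called. The numbers name no shared litter or day, the deviations of same-numbered mice correlated at -0.527, -0.195 and -0.323, and 0 of 6 mice correlated best with their own number, so the samples were taken as unpaired. Leaving out each mouse in turn gave 0 to 2 of the 9 genes called and 6 to 8 at an unadjusted p under 0.05. It also gave 0 to 3 pathway genes and 10 to 333 of all genes called, where 12984 to 13735 genes were tested. The share of all genes at an unadjusted p under 0.05 was taken only without db/m replicate 1 (10.8%, edgeR). 0 of the 9 came when any 1 of the db/db mice was left out. Without db/m replicate 3, 2 of the 9 came, with Nfkbia added, and 333 of 13640 tested genes were called. The log2 fold change of Dusp1 lay between -3.24 and -2.68 and that of Nfkbia between -1.23 and -0.64 in these runs. The family share of Nfkbia differed by -0.54 percentage points when taken per kilobase of exon and by 2.89 to 10.4 points when a mouse was left out. Depth limits Gadd45a most, with 5 to 39 reads per mouse.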
